A study of Homo sapiens with 112 samples.

Results

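FOLH1, the gene of prostate-specific membrane antigen (PSMA), and the other genes named for the N-acetylated alpha-linked acidic dipeptidase (NAALAD) activity were followed in 2 androgen-responsive human prostate cancer cell lines. VCaP cells carry the TMPRSS2-ERG fusion, and LAPC4 cells do not express ERG. The genes were found by their symbols in the table of read counts: FOLH1, FOLH1B, NAALAD2, NAALADL1 and NAALADL2, which are 5 of its 58684 rows. Cells of all groups were first starved of steroid hormones for 2 days by use of charcoal-stripped serum (10%). They then received the vehicle DMSO, the synthetic androgen R1881 at 1 nM, or 1 nM R1881 together with the antiandrogen darolutamide at 500 nM or 2 µM, for 8 or 22 h. In VCaP cells the 8 h groups held 10 DMSO, 10 R1881, 4 low-dose (500 nM) and 5 high-dose (2 µM) libraries, and the 22 h groups held 8, 9, 4 and 5. In LAPC4 cells the 8 h groups held 10, 10, 5 and 5 libraries, and the 22 h groups held 7, 10, 5 and 5. No group received darolutamide without R1881. Each line is a model of hormone response in culture, without stroma or a host.

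PSMA is a zinc-dependent carboxypeptidase anchored in the plasma membrane of prostate epithelial cells. It removes glutamate from folates that carry a glutamate chain, and from the neuropeptide N-acetylaspartylglutamate (NAAG). Because PSMA is abundant on prostate cancer cells, it is used as a target for imaging and radioligand therapy, and androgens are known to lower its expression. NAALAD2 encodes glutamate carboxypeptidase III, its closest relative, which also cleaves NAAG. NAALADL1 encodes a related peptidase of the intestine, and NAALADL2 a relative with a poorly known function.

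On GRCh38 with the GENCODE 44 annotation, FOLH1 (ENSG00000086205) lies on the minus strand at chr11:49145092-49208638. FOLH1B (ENSG00000134612), a copy of it annotated as a transcribed unprocessed pseudogene, lies on the plus strand at chr11:89639237-89698599. NAALAD2 (ENSG00000077616) follows on the same arm at chr11:90131515-90192894, plus strand. NAALADL1 (ENSG00000168060) lies at chr11:65044818-65058553, minus strand, and NAALADL2 (ENSG00000177694) at chr3:174438573-175810548, plus strand.

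FOLH1B is so similar to FOLH1 that it decides how the counts of both can be read. Of the 19 exons of the reference FOLH1 transcript, 17 had a counterpart in the FOLH1B transcript over at least 90% of their length, with 23 differences in 1939 aligned bases (98.8% identity). The longest coding exon with a full counterpart was exon 16 of FOLH1 at chr11:49154228-49154492 (265 bases), which matches FOLH1B at chr11:89690882-89691146. Both are shown in the direction of transcription, 5′ to 3′, with the 2 bases that differ in capitals.
FOLH1: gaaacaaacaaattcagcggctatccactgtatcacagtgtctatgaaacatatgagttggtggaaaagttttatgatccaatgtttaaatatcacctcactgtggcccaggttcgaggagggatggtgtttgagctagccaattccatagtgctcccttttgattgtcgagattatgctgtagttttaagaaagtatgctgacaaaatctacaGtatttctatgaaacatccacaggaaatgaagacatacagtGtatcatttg
FOLH1B: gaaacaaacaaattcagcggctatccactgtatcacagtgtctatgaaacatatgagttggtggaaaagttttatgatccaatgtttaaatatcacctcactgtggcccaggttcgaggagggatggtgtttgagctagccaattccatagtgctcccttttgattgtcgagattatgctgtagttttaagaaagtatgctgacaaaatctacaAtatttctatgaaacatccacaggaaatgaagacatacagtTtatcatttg
Exon 18 of FOLH1 at chr11:49148639-49148731 and its counterpart at chr11:89696633-89696725 are the coding stretch with the highest density of differences, 3 in 93 bases, again in capitals.
FOLH1: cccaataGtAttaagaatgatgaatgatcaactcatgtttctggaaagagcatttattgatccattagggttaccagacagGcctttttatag
FOLH1B: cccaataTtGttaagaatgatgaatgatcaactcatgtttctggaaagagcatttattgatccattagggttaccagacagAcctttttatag

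The libraries were read in single-end reads of 50 bases. Of all 50-base windows of the FOLH1 transcript (4110 bases), 26.9% occur unchanged in FOLH1B, and 50.9% of the windows of FOLH1B (2135 bases) occur unchanged in FOLH1. No window was shared between FOLH1 or FOLH1B and NAALAD2, NAALADL1 or NAALADL2. In every library FOLH1B held between 45.6% and 53.1% of the read count of FOLH1. The share of FOLH1B in the reads of both genes ran from 31.3% to 34.7%, with a median of 33.4% over the 112 libraries. This share was compared in 8 pairs of groups that did not use the VCaP DMSO or R1881 libraries. The largest difference among these 8 pairs was 0.49 percentage points between the darolutamide doses in VCaP cells at 22 h (exact two-sided permutation test, p = 0.333, adjusted p = 0.794), and the adjusted p of the others lay between 0.794 and 0.819. In the VCaP groups left out, the mean share at 22 h was 33.7% ± 0.578 (SD) with DMSO and 32.5% ± 0.984 with R1881. At 8 h it was 33.9% ± 0.315 and 33.3% ± 0.732. These differences were larger at 22 h and were not tested. How the reads were divided between the genes is not given in the sources used here, so values for FOLH1B cannot be told apart from reads of FOLH1. Summing both rows gave nearly the same fold changes as FOLH1 alone, for example -3.85 in place of -3.82 on the log2 scale for R1881 against DMSO in VCaP cells at 22 h. This follows from the nearly constant ratio of the rows, so it does not test whether shared reads affect FOLH1.

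**Figure D1:**
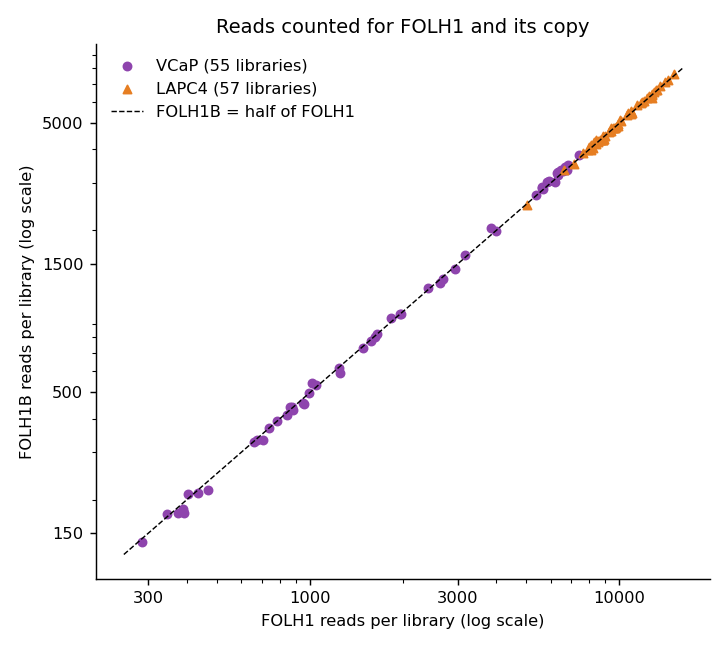
Reads counted for FOLH1 (x axis) and FOLH1B (y axis) in each of the 112 libraries, both on log scales, with VCaP libraries as circles and LAPC4 libraries as triangles. All points lie along the dashed line of a constant ratio, and FOLH1B stayed between 45.6% and 53.1% of FOLH1.

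Libraries held 12188455 to 25201678 counted reads. The luminal prostate markers KLK3, HOXB13, KRT8 and KRT18 were expressed in every library of both lines. ERG had 1578 to 21554 reads in VCaP libraries and at most 1 read in any LAPC4 library. In CPM (read counts scaled to a common library size), the summed leukocyte markers reached at most 0.401, the basal markers 2.52 and the endothelial markers 3.67 in any library. R1881 raised the androgen-responsive genes FKBP5, TMPRSS2 and KLK3 in both lines at 22 h, by 5.49, 4.73 and 3.44 on the log2 scale in VCaP cells and by 1.36, 0.52 and 1.65 in LAPC4 cells.

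In VCaP cells, FOLH1 was highest without androgen and lowest after 22 h of R1881. Values are given in CPM after TMM scaling of the library sizes. With DMSO it ran from 266 to 320 CPM at 8 h (median 297, n = 10) and from 282 to 313 CPM at 22 h (median 296, n = 8). With R1881 it ran from 39.9 to 58.7 CPM at 8 h (median 46.9, n = 10) and from 17.5 to 24.8 CPM at 22 h (median 21.3, n = 9). The DMSO and R1881 libraries were far apart at both times, and the R1881 libraries of 22 h all lay below those of 8 h. The fitted log2 difference between R1881 and DMSO was -2.68 ± 0.05 (SE) at 8 h and -3.82 ± 0.06 at 22 h, or a 6.40-fold and a 14.1-fold lower level. The 5 genes were chosen by the R1881 to DMSO difference of FOLH1 and its relatives in VCaP cells, which was already known, so the VCaP differences that use DMSO or R1881 libraries are descriptions and carry no test. In bulk samples such as these, less RNA per cell cannot be told apart from fewer cells that express a gene.

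The addition of darolutamide left FOLH1 between the R1881 and the DMSO level in VCaP cells, in the order of the doses. At 8 h the 4 low-dose libraries had 77.6, 71.3, 69.4 and 71.7 CPM, and the 5 high-dose libraries 123, 136, 122, 136 and 126 CPM. At 22 h the low-dose libraries had 34.2, 33.4, 35.2 and 34.2 CPM, and the high-dose libraries 74.2, 77.7, 71.3, 84.8 and 85.7 CPM. The groups of a time point did not overlap. Against R1881 alone, FOLH1 was higher by 0.64 ± 0.06 (low dose) and 1.47 ± 0.06 (high dose) on the log2 scale at 8 h, and by 0.70 ± 0.07 and 1.90 ± 0.06 at 22 h. With the high dose it was still lower than with DMSO, with log2 differences of -1.21 ± 0.06 at 8 h and -1.92 ± 0.06 at 22 h.

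In VCaP cells the summed level of the 4 fibroblast markers moved in the same direction as FOLH1. At 22 h it ran from 25.8 to 29.5 CPM with DMSO, from 0.630 to 1.61 CPM with R1881, from 1.12 to 1.99 CPM with the low dose and from 4.77 to 5.65 CPM with the high dose. Of the 4 markers, 2 passed the limit on reads. This sum was mostly LUM, which had 2 to 657 reads per library, while COL1A2 had 0 reads in all 55 libraries, DCN at most 7 and COL1A1 at most 40. The summed endothelial markers moved the other way at 22 h, from 0.413 to 0.840 CPM with DMSO to between 2.02 and 3.34 CPM with R1881. The part of these markers in the results was not tested.

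The darolutamide doses were compared by a test, and the means compared use no DMSO or R1881 libraries. The limit on reads, the scaling and the spread came from the fit of all 8 VCaP groups, with these libraries included. The genes were, however, chosen with their VCaP R1881 difference known. A higher level with more antagonist is not independent of that choice, so the tests and counts between doses are no separate support. FOLH1 was higher with 2 µM than with 500 nM by 0.83 ± 0.07 on the log2 scale at 8 h (1.77-fold, edgeR quasi-likelihood test, adjusted p = 1.17e-13) and by 1.20 ± 0.08 at 22 h (2.30-fold, adjusted p = 4.88e-19). Of the 4 genes with enough reads for a test in VCaP cells, 3 were higher with the high dose at 8 h, where 7.53% of all 19266 tested genes were called higher. At 22 h all 4 tested genes were higher, against 10.4% of all genes. FOLH1B is 1 of these genes and shares reads with FOLH1.

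**Figure D2:**
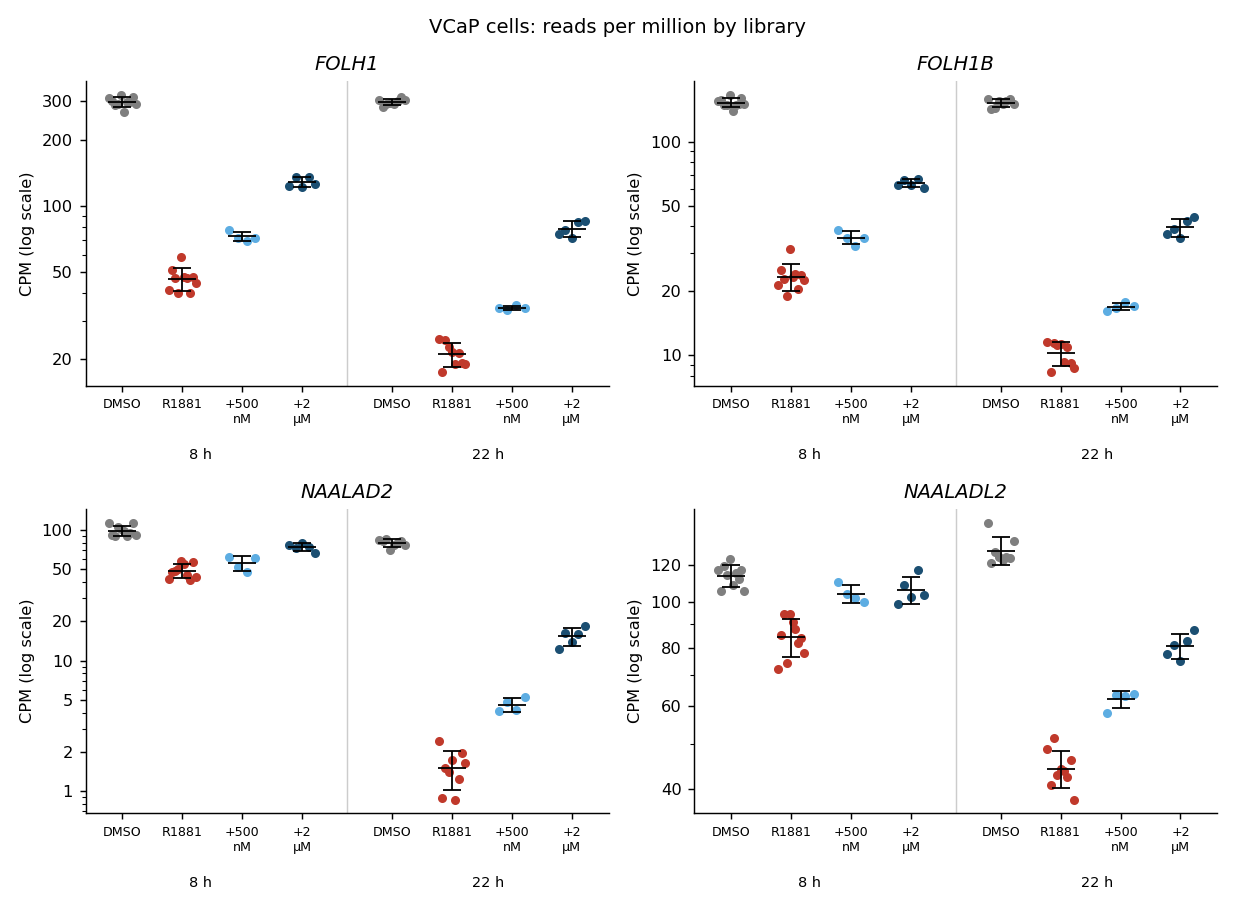
CPM (log scale) of FOLH1, FOLH1B, NAALAD2 and NAALADL2 in VCaP cells by treatment and time, where +500 nM and +2 µM are the darolutamide doses added to R1881. Each point is 1 library, and the bars give the mean and SD. At 22 h the 4 genes follow the same order, from R1881 alone through both doses to DMSO, and NAALAD2 spans the widest range, from 1.52 to 79.9 CPM on average.

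NAALAD2 had the largest range of the group in VCaP cells and a different time course. With DMSO it ran from 89.1 to 114 CPM at 8 h (median 96.9, n = 10) and from 69.6 to 85.8 CPM at 22 h (median 82.0, n = 8). With R1881 it ran from 41.6 to 57.5 CPM at 8 h (median 48.2, n = 10), but from only 0.863 to 2.43 CPM at 22 h (median 1.51, n = 9), which corresponds to 13 to 46 reads. Groups did not overlap at either time. The log2 difference between R1881 and DMSO was -1.02 ± 0.07 at 8 h and -5.70 ± 0.11 at 22 h (52.0-fold lower). The R1881 difference thus grew by -4.68 ± 0.13 between the times, compared with -1.14 ± 0.07 for FOLH1 and -1.11 ± 0.07 for NAALADL2. At 22 h, 53 of the 19266 tested genes had a lower fold change than NAALAD2 and 206 a lower one than FOLH1.

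With darolutamide, NAALAD2 at 22 h stood at 4.12, 4.82, 4.17 and 5.28 CPM in the low-dose libraries and at 12.2, 16.4, 13.8, 15.9 and 18.2 CPM in the high-dose libraries. The doses did not overlap, and the high dose was higher by 1.74 ± 0.13 on the log2 scale (3.33-fold, edgeR adjusted p = 8.71e-16). At 8 h the values were 62.5, 52.0, 47.9 and 60.5 CPM with the low dose and 76.6, 72.9, 79.8, 73.7 and 66.5 CPM with the high dose, a log2 difference of 0.41 ± 0.10 (adjusted p = 0.00173). The low-dose libraries of 8 h overlapped those of R1881 alone. Even with the high dose, NAALAD2 at 22 h lay below DMSO, with a log2 difference of -2.39 ± 0.10.

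NAALADL2 changed less in VCaP cells, and mostly between 8 and 22 h. With DMSO it ran from 106 to 124 CPM at 8 h (median 115, n = 10) and from 121 to 148 CPM at 22 h (median 125, n = 8). With R1881 it ran from 72.1 to 94.6 CPM at 8 h (median 84.7, n = 10) and from 38.0 to 51.4 CPM at 22 h (median 43.8, n = 9). The log2 difference between R1881 and DMSO was -0.44 ± 0.04 at 8 h and -1.54 ± 0.05 at 22 h, and the groups did not overlap. At 22 h the low-dose libraries had 58.2, 63.5, 63.1 and 63.9 CPM and the high-dose libraries 77.5, 81.1, 74.95, 82.7 and 87.3 CPM, a difference of 0.38 ± 0.07 (edgeR adjusted p = 2.26e-05). At 8 h the doses overlapped and did not pass the test, with a difference of 0.03 ± 0.07 and a 95% interval from -0.10 to 0.16 (adjusted p = 0.850).

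FOLH1B followed FOLH1 in all of these groups. It had a mean of 152 ± 6.26 CPM with DMSO and 10.2 ± 1.29 CPM with R1881 at 22 h (SD, n = 8 and 9), with a log2 difference of -3.90 ± 0.06. NAALADL1 was at the limit of detection. It had 9 reads in all 55 VCaP libraries together and 4 reads in all 57 LAPC4 libraries, and 49 and 53 of these libraries had none. At 0 reads in the 10 VCaP DMSO libraries of 8 h, a level of up to 0.0153 CPM (3 reads over the group) remained possible, and no difference was detectable at this depth. SAC3D1 overlaps the end of NAALADL1 on the other strand.

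Without R1881, the genes also differed in level. Per kilobase of annotated exon, FOLH1 had 55.8 CPM in VCaP cells with DMSO at 22 h, NAALAD2 11.1 and NAALADL2 9.51, and FOLH1 lay above 95.6% of the 16258 tested genes with a known length. After 22 h of R1881 these levels were 3.95, 0.212 and 3.27 CPM per kilobase, and FOLH1 then lay above 52.6% of the genes. All 4 tested genes were lower with R1881 than with DMSO without overlap of libraries at 8 and at 22 h, as were 14.6% and 23.3% of all tested genes. Since this contrast was known when the genes were chosen, nothing is read from these counts.

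The extent to which darolutamide moved each gene back was expressed per library as the share of the R1881 to DMSO distance in log2 CPM, for genes with an R1881 difference above 0.5 on the log2 scale. For FOLH1, 500 nM gave a return of 24.2% ± 2.58 (SD, n = 4) at 8 h and 18.5% ± 0.817 at 22 h. The high dose gave 54.9% ± 2.83 (n = 5) at 8 h and 49.8% ± 3.04 at 22 h. NAALAD2 returned by 19.1% ± 17.7 with the low dose and by 59.4% ± 9.57 with the high dose at 8 h. Its returns at 22 h were 28.01% ± 2.97 and 58.02% ± 3.95. For NAALADL2, which passed the limit at 22 h only, they were 32.1% ± 4.06 and 56.3% ± 5.51. Over all 9730 genes called with R1881 at 22 h and past the same limit, the median return was 39.6% with the low and 62.1% with the high dose, so each of these genes lay below the median with both doses. At 8 h the medians over 6606 genes were 38.5% and 68.9%. On a linear CPM scale the returns at 22 h were far smaller, 4.76% and 20.9% for FOLH1, 3.93% and 17.6% for NAALAD2 and 21.2% and 43.1% for NAALADL2.

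**Figure D3:**
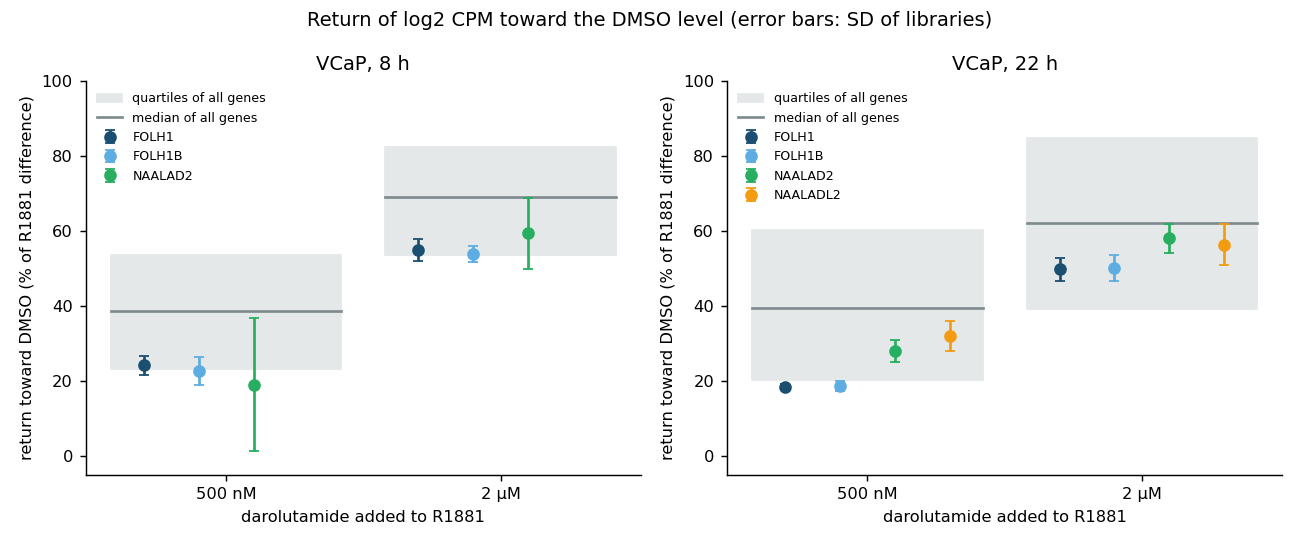
Return of each gene toward its DMSO level in VCaP cells (y axis, percent of the R1881 to DMSO distance in log2 CPM) for both darolutamide doses (x axis) at 8 h and 22 h, with SD of 4 (500 nM) or 5 (2 µM) libraries. Grey bands give the quartiles and grey lines the medians of all genes called with R1881, and at 22 h FOLH1 reached 18.5% and 49.8% against medians of 39.6% and 62.1%.

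In LAPC4 cells FOLH1 had higher CPM values than in VCaP cells, although the lines were scaled separately, and its R1881 differences were smaller. At 8 h it ran from 439 to 500 CPM with DMSO (median 463, n = 10) and from 404 to 442 CPM with R1881 (median 420, n = 10), with a slight overlap. At 22 h it ran from 600 to 671 CPM with DMSO (median 629, n = 7) and from 449 to 497 CPM with R1881 (median 467, n = 10), without overlap. FOLH1 fell by 0.14 ± 0.03 on the log2 scale at 8 h (edgeR adjusted p = 3.60e-04) and by 0.44 ± 0.03 at 22 h (1.35-fold, adjusted p = 1.12e-17). Of the 3 genes tested in LAPC4 cells, 2 fell at 8 h and all 3 at 22 h, against 0.895% and 6.45% of all 18204 tested genes. FOLH1B is among them and shares reads with FOLH1, so their calls here and below are not independent. The 5 genes were chosen with earlier results of these data known. The tests and counts of these genes in LAPC4 cells, here and below, are therefore no separate support. With only the control replicates above 5, the 8 h value of FOLH1 was -0.13 and did not pass the test (adjusted p = 0.272), while its 22 h value was -0.48 and passed. The 8 h call of FOLH1B was lost with upper-quartile factors (adjusted p = 0.0591), with control replicates 1 to 5 (0.0833) and with those above 5 (0.495), and the 22 h call of NAALADL2 with those above 5 (0.103). The fall at 22 h exceeded that at 8 h by 0.30 ± 0.04 (interaction contrast of -0.30, adjusted p = 9.42e-07), and 2 of 3 genes passed in this direction, where 1.41% of all genes did. Of all calls in the interaction contrast 56.0% were higher, and 38.3% with upper-quartile factors. The corresponding values in VCaP cells come from a separate fit, and the difference between the lines was not tested. The summed fibroblast markers of LAPC4 cells moved with FOLH1 at 22 h, from 4.43 to 6.01 CPM with DMSO, 2.05 to 3.23 CPM with R1881 and 3.65 to 5.32 CPM with the high dose. LUM had 29 to 104 reads per library there, COL1A1 at most 29, DCN at most 9 and COL1A2 at most 3, and their part in the results was not tested.

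**Figure D4:**
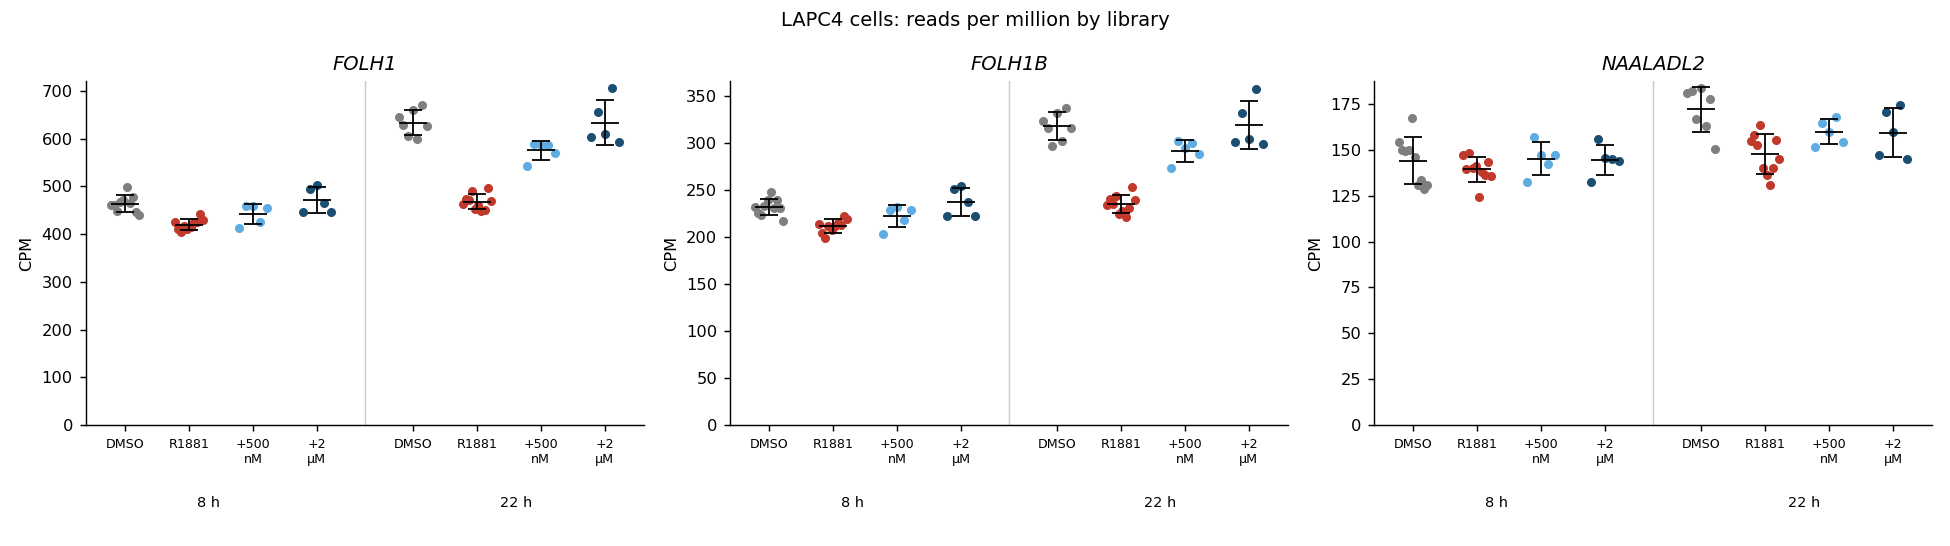
CPM (linear scale from 0) of FOLH1, FOLH1B and NAALADL2 in LAPC4 cells by treatment and time, with 1 point per library and bars for the mean and SD, where +500 nM and +2 µM are the darolutamide doses added to R1881. At 22 h the R1881 libraries of FOLH1, at 449 to 497 CPM, lie below all DMSO and darolutamide libraries, and the high-dose libraries, at 594 to 706 CPM, overlap the DMSO range of 600 to 671 CPM.

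Darolutamide raised FOLH1 in LAPC4 cells at 22 h, and the high dose brought it into the range of DMSO. The low-dose libraries had 543, 589, 587, 587 and 570 CPM and the high-dose libraries 603, 655, 609, 706 and 594 CPM, so that all libraries of both doses lay above the R1881 group. The low-dose libraries all lay below those of DMSO. FOLH1 rose against R1881 by 0.30 ± 0.03 with the low dose (edgeR adjusted p = 8.98e-10) and by 0.44 ± 0.03 with the high dose (adjusted p = 9.27e-16). With each dose 2 of 3 tested genes rose, FOLH1 and FOLH1B, which share reads, against 2.68% and 5.0% of all genes. The difference between the high dose and DMSO was -0.0013 ± 0.036, with a 95% interval from -0.07 to 0.07. The high dose exceeded the low dose by 0.14 ± 0.04 without overlap, but did not pass the test over all genes (95% interval from 0.06 to 0.22, adjusted p = 0.177).

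At 8 h the darolutamide groups in LAPC4 cells differed little. FOLH1 had 413, 459, 458, 426 and 454 CPM with the low dose and 446, 495, 504, 465 and 447 CPM with the high dose. Against R1881 the low dose gave 0.07 ± 0.03 on the log2 scale, which did not pass (edgeR adjusted p = 0.907). The high dose gave 0.17 ± 0.03 and passed (adjusted p = 0.00109). FOLH1B, which shares reads with FOLH1, also passed, so that 2 of 3 genes rose where 0.467% of all genes did. The call of FOLH1 rested on few libraries: without high-dose replicate 3 the value was 0.13 (adjusted p = 0.0628), and with only the control replicates above 5 it was 0.14 (adjusted p = 0.180). With the replicate number as a block it was 0.18 (adjusted p = 0.264). FOLH1B lost its call without high-dose replicate 2 (adjusted p = 0.0546) or 3 (0.157), with only the control replicates above 5 (0.369) and with the block (0.346).

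Time alone also moved these genes in LAPC4 cells. Between 8 and 22 h with DMSO, FOLH1 rose by 0.45 ± 0.03 on the log2 scale (edgeR adjusted p = 8.61e-18) and NAALADL2 by 0.26 ± 0.05 (adjusted p = 3.68e-05). All 3 tested genes rose, FOLH1B among them, which shares reads with FOLH1, against 10.7% of all genes. Of all calls in this comparison 48.5% were higher, and 69.5% with upper-quartile factors. The R1881 libraries of FOLH1 at 22 h, at 449 to 497 CPM, lay in the range of the DMSO libraries of 8 h, at 439 to 500 CPM. In VCaP cells the same difference for FOLH1 with DMSO was 0.0021 ± 0.049.

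NAALADL2 in LAPC4 cells ran from 150 to 184 CPM with DMSO (median 178, n = 7) and from 131 to 164 CPM with R1881 (median 149, n = 10) at 22 h. It fell by 0.22 ± 0.05 on the log2 scale (edgeR adjusted p = 4.88e-04), although the groups overlapped. With only the control replicates above 5, which leaves 2 DMSO libraries, the value was -0.21 and did not pass (adjusted p = 0.103). Its 8 h difference was -0.05 ± 0.04 (adjusted p = 0.785), and neither darolutamide dose differed from R1881 by more than 0.11 at 22 h (adjusted p = 0.291 and 0.213). Per kilobase of exon, LAPC4 cells with DMSO at 22 h had 119 CPM of FOLH1 and 12.7 CPM of NAALADL2.

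NAALAD2, the most variable of the genes in VCaP cells, was nearly silent in LAPC4 cells. Its 57 libraries held 185 NAALAD2 reads together, with a median of 3 and at most 10 per library, and the gene did not reach the limit for a test. The groups had median levels between 0.107 and 0.244 CPM and overlapped throughout.

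**Figure D5:**
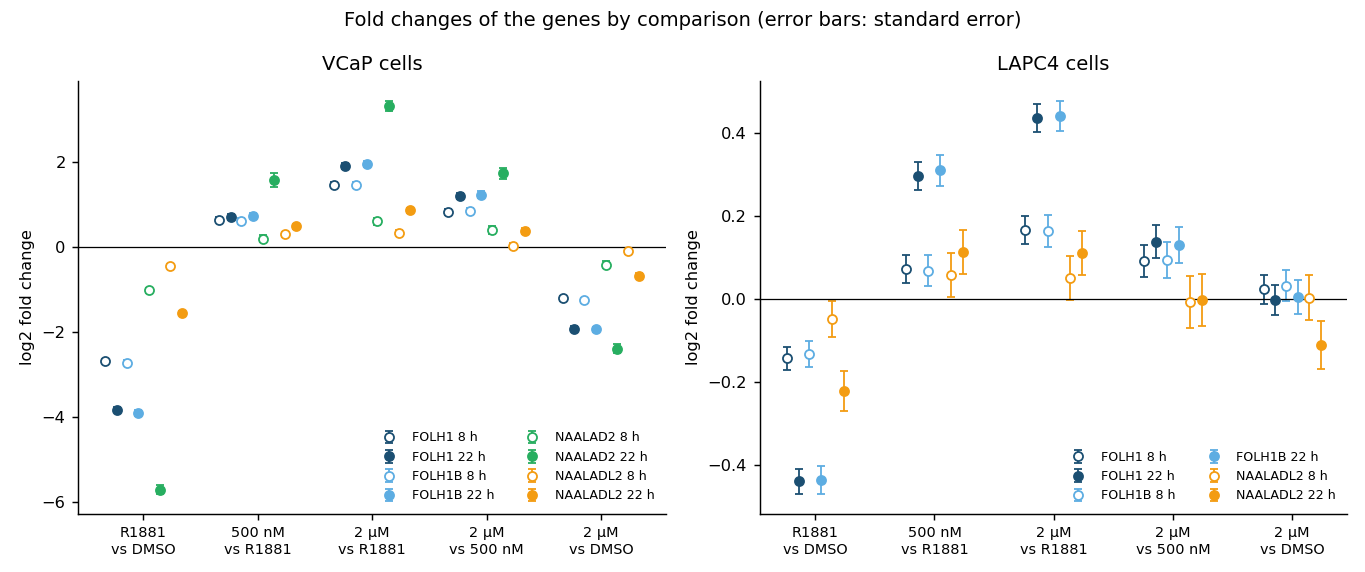
Log2 fold changes (y axis, with SE) of the tested genes in 5 comparisons at 8 h (open) and 22 h (filled), in VCaP and LAPC4 cells on different y scales. For R1881 against DMSO at 22 h the values run from -5.70 to -1.54 in VCaP cells and from -0.44 to -0.22 in LAPC4 cells, and in the comparison of 2 µM with DMSO those of FOLH1 are -1.92 and -0.0013.

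NAALAD2 and NAALADL2 were both lower with R1881 in VCaP cells, and the sequence before their starts is shown for this reason. RefSeq promoter entries (GRCh38.p14) were found for these 2 of the 5 genes. The bases shown lie before the RefSeq start, on the plus strand, and stop where the GENCODE exon at that start begins. Other GENCODE transcripts of both genes start further upstream.
NAALAD2, chr11:90134413-90134614: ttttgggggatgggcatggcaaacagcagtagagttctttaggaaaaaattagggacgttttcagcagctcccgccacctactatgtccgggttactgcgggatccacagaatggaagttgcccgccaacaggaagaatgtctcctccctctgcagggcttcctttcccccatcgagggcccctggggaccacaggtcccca
NAALADL2, chr3:174859084-174859321: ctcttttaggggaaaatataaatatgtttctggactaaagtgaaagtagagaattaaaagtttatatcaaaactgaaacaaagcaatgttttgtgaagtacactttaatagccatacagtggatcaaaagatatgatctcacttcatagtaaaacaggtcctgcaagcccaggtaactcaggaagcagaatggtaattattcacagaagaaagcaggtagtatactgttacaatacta
The 250 bases before the start had a GC content of 59.6% for NAALAD2 and 33.6% for NAALADL2, against a median of 58.0% over 27305 promoters. They were searched on both strands for the steroid hormone response half-site AGAACA, the full site in which AGAACA is followed after 3 bases by TGTTCT, so that it contains the half-site, and the forkhead motif TGTTTAC. These letters occurred in 12.4%, 0.0037% and 2.98% of all promoters and in neither of these windows, so no base is in capitals. The earlier starts were not searched.

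The genes whose pattern over the 8 group means of a line was most like each member were taken by the smallest Euclidean distance of centred log2 CPM. In VCaP cells ABCA12, a lipid transporter (distance 0.44), and AP000473.5 (0.52) were nearest to FOLH1 after FOLH1B itself (0.07), and AKR1C3, an androgen-synthesizing enzyme (0.54), was near FOLH1B. PLA2G2A, a secreted phospholipase (1.01), TNC, an extracellular matrix protein (1.17), and TRPM3, an ion channel (1.35), were nearest to NAALAD2. ACSF2 (0.21), PGAP1 (0.23) and RPL12P1 (0.25) were nearest to NAALADL2. In LAPC4 cells OAT, the mitochondrial ornithine aminotransferase (0.06), and SLC2A13, a myo-inositol transporter (0.07), were nearest to FOLH1 apart from FOLH1B. TP53INP1, CLUL1 and GPC4 were nearest to NAALADL2 at 0.06 each.

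Other genes were described with 6 lists of 64 genes. The lists cover genes around the substrates and products of PSMA, relatives of PSMA, and other surface antigens of prostate cancer. Of the 64 genes, 51 passed the limit on reads for VCaP and 48 for LAPC4. At 22 h in VCaP cells, 40 of the 51 were called with R1881, 21 higher and 19 lower, which is a share of 78.4% beside 77.4% of all tested genes. Of the 5 tested genes of NAAG and N-acetylaspartate metabolism, 3 fell and 1 rose. The dicarboxylate transporter SLC13A3 fell by 1.93 ± 0.22 on the log2 scale, and of the NAAG synthetases RIMKLA rose by 0.44 ± 0.05 and RIMKLB fell by 0.37 ± 0.05. In the folate list all 7 tested genes were called, 5 of them higher, among them the mitochondrial folate carrier SLC25A32 (1.03 ± 0.05), while the proton-coupled folate transporter SLC46A1 fell by 0.66 ± 0.04. Among the one-carbon enzymes 6 rose and 7 fell of 14, and methionine synthase, MTR, fell by 0.92 ± 0.05. Among the glutamate genes 2 rose and 3 fell of 7, with glutaminase 2, GLS2, changed by -1.35 ± 0.06 and glutamate dehydrogenase, GLUD1, higher by 0.68 ± 0.04. The adjusted p of edgeR for the genes named lay at or below 2.39e-09. Genes of these lists, here and below, were named for the smallest adjusted p with R1881 at 22 h in the line described. A small p was therefore set by that choice.

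Relatives of PSMA and other surface antigens moved in both directions in VCaP cells, where 66.9% of all tested genes were called with R1881 at 8 h and 77.4% at 22 h. Of 8 peptidase and transferrin receptor relatives, 1 rose and 3 fell at 8 h, and 4 rose and 2 fell at 22 h, with the transferrin receptor TFRC higher by 0.39 ± 0.04 and the peptidase ERMP1 changed by -1.09 ± 0.06 at 22 h. Of 10 tested surface antigens of prostate cancer, 1 rose and 7 fell at 8 h, with a median log2 difference of -0.46 beside -0.03 over all genes. At 22 h 3 of them rose and 2 fell, with STEAP1 higher by 0.51 ± 0.03, CD46 higher by 0.83 ± 0.04 after a fall at 8 h (-0.46 ± 0.04), and ERBB2 changed by -1.31 ± 0.08. In LAPC4 cells 2 of 8 tested antigens rose at 22 h and 1 fell. STEAP1 rose by 0.70 ± 0.05 (edgeR adjusted p = 5.22e-17) and PSCA by 0.56 ± 0.14 (adjusted p = 0.00243), the opposite direction to FOLH1 in the same libraries, while CD46 changed by -0.10 ± 0.03 (adjusted p = 0.0309), the same direction as FOLH1.

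In LAPC4 cells at 22 h, 15 of 48 tested list genes were called with R1881, 12 higher and 3 lower, a share of 31.2% beside 13.3% of all tested genes. Among the one-carbon genes 7 of 14 rose, where 6.83% of all genes did, and 0 fell, with a median log2 difference of 0.10 beside 0.0067 over all genes. They include MTHFD1 (0.27 ± 0.03, edgeR adjusted p = 1.53e-09), TYMS (0.18 ± 0.03) and MTHFD2 (0.16 ± 0.03), enzymes of folate-dependent carbon transfer. The number of called list genes was 9 with control replicates 1 to 5 and 2 with those above 5. Over all genes, 2418 were called with all controls and 813 with those above 5. The lists were written with earlier results of these data known, so nothing is read from these shares. At 8 h 1 of 48 genes was called, STEAP1, higher by 0.29 ± 0.05 (edgeR adjusted p = 5.07e-06), where 2.64% of all genes were called.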

How the data were processed

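Poly-A RNA of VCaP and LAPC4 cells was sequenced from stranded libraries on a HiSeq2500 in single-end reads of 50 cycles, from RNA with an integrity number above 8. The authors used bcl2fastq 2.17 for conversion, STAR for alignment (GRCh38), featureCounts of Subread for the counts per gene and DESeq2 for their tests. Other versions, the gene annotation, how strand was used and how reads with several matches were counted are not given in the sources used here. The deposited values are raw read counts for 58684 gene symbols in 112 libraries, with 12188455 to 25201678 reads per library, and no normalization. All libraries were used. The labels put 4 to 10 libraries in a group and do not say that they came from separate cultures, although the study's methods speak of 5 biological replicates per condition. Whether the control libraries numbered above 5 came from further cultures is not given in the sources used here, so the p-values measure the spread between these libraries, which may be technical. None of the 382 pairs of libraries within a group agreed within sampling noise (chi-square per degree of freedom of 1.47 or more).

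Counts were analysed per cell line with edgeR 4.0.16 in R 4.3.3, with TMM factors, for the 19266 (VCaP) and 18204 (LAPC4) genes that reached 10 reads in 4 or more libraries. All 8 groups of a line entered one quasi-likelihood fit, and 12 comparisons per line were tested, each with Benjamini-Hochberg adjustment over all tested genes. A gene was called at an adjusted p under 0.05. SE is the log2 fold change over the square root of F. CPM used TMM-scaled library sizes, with a prior count of 2 for log2 CPM. The share of FOLH1B was compared by permutation tests in scipy 1.17.1, exact except for the groups of 10 and 10 (100000 resamples). The fit was tested on simulated counts.

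The 5 genes and the 6 gene lists were chosen with earlier results of these data known. Besides the 5 genes and the markers, the text names the 3 nearest genes by pattern, the neighbours on the chromosome and, of each list, up to 3 called genes with the smallest adjusted p for R1881 at 22 h. Alternatives were DESeq2 1.42.0, upper-quartile factors, other filters, only the compared groups, control replicates 1 to 5 or above 5, a replicate block, a GC slope, the sum of FOLH1 and FOLH1B, and leaving out each darolutamide library. GC content was known for 84.4% (VCaP) and 84.0% (LAPC4) of the tested genes. Counting intervals and floors cover counting error only. Some luminal marker genes are not reported here.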

Additional observations from a re-analysis of the deposited data

Results flagged for a closer look

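Over the tested genes, 56 sets of 4 to 10 libraries were checked for a library far from the others, and 2 stood out, where chance gives about 1 in 20. In VCaP cells with the low dose at 22 h, replicate 1 had 5.87 log2 CPM of NAALADL2 and the other libraries 5.98 to 6.0. In LAPC4 cells with R1881 at 8 h, replicate 6 had 6.96 log2 CPM of NAALADL2 and the others 7.09 to 7.21. Both libraries had about average depth, with 20207949 and 20131513 reads.

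The R1881 effect in LAPC4 cells differed between the times by a test of the difference. It was stronger at 22 h than at 8 h by -0.30 on the log2 scale for FOLH1 (edgeR interaction contrast, adjusted p = 9.42e-07) and by -0.30 for FOLH1B (adjusted p = 4.29e-06). For NAALADL2 the difference was -0.17 and did not pass (adjusted p = 0.170).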

How the results depend on the processing

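For the fold changes of the 5 genes, 1091 of 1114 values under the alternatives kept their direction and their side of the threshold or stayed within the replicate spread, 12 lost the call, 6 gained it, 5 moved and 0 reversed. With upper-quartile factors the R1881 to DMSO difference of NAALADL2 in VCaP cells at 22 h was -1.66, where the median of all genes shifted by -0.12, and FOLH1B in LAPC4 cells at 8 h was at -0.12 (edgeR adjusted p = 0.0591). With control replicates 1 to 5 the latter was -0.16 (adjusted p = 0.0833). With only the control replicates above 5 it was -0.11 (adjusted p = 0.495) and FOLH1 was -0.13 (adjusted p = 0.272), the R1881 difference of NAALADL2 in LAPC4 cells at 22 h was -0.21 (adjusted p = 0.103), and the 8 h difference of the high dose to R1881 was 0.14 for FOLH1 (adjusted p = 0.180) and 0.13 for FOLH1B (adjusted p = 0.369). In VCaP cells these controls gave -3.98 (FOLH1) and -4.05 (FOLH1B) for R1881 at 22 h, 0.072 for FOLH1 between the DMSO times and -1.29 for its R1881 difference between times. These settings use fewer control libraries. Leaving out 1 high-dose library at a time, the LAPC4 difference of the high dose to R1881 at 8 h ran from 0.13 to 0.19 for both genes. FOLH1 lost the call without replicate 3 (adjusted p = 0.0628), and FOLH1B without replicate 2 (0.0546) or 3 (0.157).

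With a GC slope as covariate, FOLH1 passed between the doses in LAPC4 cells at 8 h (0.094, edgeR adjusted p = 0.0431) and 22 h (0.12, adjusted p = 2.41e-04), as did FOLH1B at 22 h (0.11), and NAALADL2 passed at 22 h for the low (0.12) and high dose (0.092) against R1881 and for the R1881 difference between times (-0.11). The cause was not tested. The number of called list genes with R1881 in LAPC4 cells at 22 h, 15, became 24 with the GC slope, 9 with control replicates 1 to 5 and 2 with those above 5. On the linear CPM scale the returns with the low and high dose were 10.4% and 32.7% for FOLH1 and 9.497% and 31.4% for FOLH1B at 8 h. At 22 h they were 4.76% and 20.9% for FOLH1, 4.70% and 20.8% for FOLH1B, 3.93% and 17.6% for NAALAD2, and 21.2% and 43.1% for NAALADL2. With control replicates 1 to 5 the low-dose returns at 22 h were 17.0% for FOLH1 and 17.3% for FOLH1B.

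Counts of all called genes depended on the setting. With R1881 in LAPC4 cells, 2418 genes at 22 h became 813 with control replicates above 5 and 4082 with the GC slope, and 481 genes at 8 h became 239 (controls 1 to 5), 214 (above 5), 304 (replicate block) and 1073 (GC slope). The high dose against R1881 gave 281 genes at 8 h, 89 with the replicate block and 661 with the GC slope, and 1906 at 22 h, 3656 with the GC slope. The low dose at 22 h gave 1072, and 2252 with the GC slope. DMSO between times gave 4020, 1351 with controls above 5 and 6693 with the GC slope, and the R1881 difference between times gave 584, 386 without a filter, 281 and 146 with the controls 1 to 5 and above 5 and 1534 with the GC slope. In VCaP cells the doses gave 3386 (8 h) and 3889 genes (22 h), and 5129 and 5969 with the GC slope.

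Replicate numbers are shared between groups, but in 0 of 22 comparisons did all same-numbered pairs correlate above 0.1, and in none did every library correlate best with its own number, so the numbers were not taken as pairs. With the replicate block, the high dose against R1881 in LAPC4 cells at 8 h gave 0.18 for FOLH1 (edgeR adjusted p = 0.264) and for FOLH1B (adjusted p = 0.346), which did not pass, and no other call of the 5 genes changed.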

Other observations

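Of the 6 expressed genes nearest to FOLH1, FOLH1B and NAALAD2 on chromosome 11, 4 were lower and 2 higher with R1881 than with DMSO in VCaP cells at 22 h. In this comparison 77.4% of all tested genes were called. The 4 lower genes, UBTFL7, UBTFL2, UBTFL1 and TRIM48, passed the limit on reads mainly through the DMSO libraries. A lower level with R1881 is therefore not independent of that limit, and nothing is read from this count or from the test of TRIM48. UBTFL7 lies 62.0 kb from FOLH1, UBTFL2 54.2 kb from FOLH1B and UBTFL1 44.4 kb from NAALAD2, and these 3 belong to one family of near-identical genes, so that the reads of each are uncertain. With DMSO at 22 h, the 8 libraries had 12 to 25 reads of UBTFL7, 36 to 67 of UBTFL2 and 44 to 84 of UBTFL1. With R1881 at 22 h all 9 libraries had 0 reads of each, which makes them at least 59.4-fold, 146-fold and 187-fold lower against a floor of 3 reads over the group. With the high dose of darolutamide the 5 libraries had 0 to 2, 1 to 8 and 1 to 11 reads. TRIM48, the next expressed gene on the other side of FOLH1, lies 6053517 bases away. It had a mean of 0.544 CPM with DMSO and 0.0107 CPM with R1881 (edgeR adjusted p = 3.94e-12), and at most 19 reads per library. GAPDHP70, 1230014 bases before FOLH1B, was higher with R1881 by 0.70 ± 0.19 on the log2 scale (edgeR adjusted p = 8.97e-04), with at most 28 reads per library. Whether reads of GAPDHP70 also match genes elsewhere was not checked. CHORDC1, 7.5 kb beyond NAALAD2 and encoding a chaperone-binding protein, was higher with R1881 at 22 h by 0.28 ± 0.05 on the log2 scale (edgeR adjusted p = 3.22e-07).

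NLGN1, which encodes a synaptic adhesion protein and lies 144 kb before NAALADL2, in VCaP cells fell by 3.06 ± 0.11 on the log2 scale at 22 h (edgeR adjusted p = 4.09e-32). In LAPC4 cells it changed by 0.10 ± 0.05 and did not pass the test (adjusted p = 0.249). UBE2V1P2 lies inside NAALADL2 on the other strand and had at most 446 reads in a VCaP library. It rose by 0.28 ± 0.06 where NAALADL2 was lower. Whether reads of UBE2V1P2 also match genes elsewhere was not checked.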
